A study of Homo sapiens with 9 samples.

Results

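The androgen-regulated loci described here are 8 stretches of the genome around genes that prostate cells switch on through the androgen receptor, the kallikrein cluster left aside. Open chromatin in them was read as peaks of ATAC-seq, an assay in which a transposase cuts and tags accessible DNA. Overlapping peaks of 9 libraries (1 bp sufficed) were joined into regions, and 163 of the 128994 merged regions (0.1264%) overlapped one of the 8 windows. The windows are given in hg19 coordinates. Regions entered by position alone, but the 8 loci themselves were picked with earlier results of these data known. The cells were 22Rv1, a human prostate carcinoma line that expresses the androgen receptor, whose SF3B1 gene, which encodes a splicing factor, had been edited to C1111S. Every group carried that edit, the vehicle group included, so no library here had unedited SF3B1. There were 3 libraries of cells given the vehicle DMSO (0.1%), 3 of cells given WX-02-23 at 20 µM and 3 of cells given WX-02-43 at 20 µM, each for 3 h. The labels call both compounds stereoprobes. They do not say whether the edited line is 1 clone or whether the 3 libraries of a group came from separate cultures, so the p-values below measure the spread between these libraries, which may be technical.

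The androgen receptor is a steroid-activated transcription factor that binds DNA mostly at enhancers far from the genes it controls, often beside the pioneer factor FOXA1, a forkhead protein that opens chromatin in luminal prostate cells. TMPRSS2 is a cell-surface serine protease whose androgen-driven promoter is fused to ERG in many prostate cancers, and FKBP5 is an HSP90 co-chaperone of steroid receptors. PMEPA1 is a membrane protein that dampens TGF-beta signalling, SLC45A3 (prostein) is a prostate membrane transporter and NDRG1 is a stress-induced cytoplasmic protein. ZBTB16 (PLZF) is a zinc-finger repressor, ACPP is prostatic acid phosphatase and STEAP4 is a metalloreductase. In RefSeq's gene order each of them has near neighbours, among them MX1 beside TMPRSS2 and ELK4 beside SLC45A3, so a region in a window is named by its window and was not assigned to a gene.

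Promoters were taken from RefSeq (build GRCh38.p14, 250 bases before to 50 bases after a start). NDRG1 was left out by the selection, whatever RefSeq holds for it. The 9 promoters taken belong to 5 of the 8 genes, namely FKBP5, PMEPA1, SLC45A3, ACPP (there ACP3) and STEAP4. The 4 printed here belong to the 3 of these genes whose windows held a region called lower or lost with WX-02-23 against DMSO, and FKBP5 is shown at both of its starts because they differ in base composition. All 4 lie on the minus strand and are written 5′ to 3′ in the direction of transcription. Capitals mark matches, on either strand, to the androgen receptor hexamer AGAACA or the forkhead letters TGTTTAC and TGTTTGC.
FKBP5, chr6:35728534-35728833: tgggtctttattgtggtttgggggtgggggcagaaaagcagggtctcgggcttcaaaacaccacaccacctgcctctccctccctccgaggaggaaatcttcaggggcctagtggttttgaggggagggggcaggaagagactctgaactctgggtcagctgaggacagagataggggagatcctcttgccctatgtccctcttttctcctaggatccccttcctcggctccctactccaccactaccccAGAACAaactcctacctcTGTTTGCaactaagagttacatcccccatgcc
FKBP5, chr6:35688866-35689165: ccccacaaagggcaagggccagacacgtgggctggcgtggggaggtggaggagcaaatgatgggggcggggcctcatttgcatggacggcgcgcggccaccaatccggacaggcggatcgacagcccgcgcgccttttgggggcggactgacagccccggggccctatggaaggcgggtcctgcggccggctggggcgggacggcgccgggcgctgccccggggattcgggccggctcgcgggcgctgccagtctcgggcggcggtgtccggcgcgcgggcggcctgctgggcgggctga
SLC45A3, chr1:205680460-205680759: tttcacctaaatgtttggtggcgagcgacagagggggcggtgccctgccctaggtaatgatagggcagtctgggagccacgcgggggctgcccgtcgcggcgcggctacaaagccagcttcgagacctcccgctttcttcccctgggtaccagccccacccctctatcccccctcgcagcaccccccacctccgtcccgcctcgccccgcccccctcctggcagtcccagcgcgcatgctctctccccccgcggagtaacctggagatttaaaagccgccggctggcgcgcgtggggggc
STEAP4, chr7:88306845-88307144: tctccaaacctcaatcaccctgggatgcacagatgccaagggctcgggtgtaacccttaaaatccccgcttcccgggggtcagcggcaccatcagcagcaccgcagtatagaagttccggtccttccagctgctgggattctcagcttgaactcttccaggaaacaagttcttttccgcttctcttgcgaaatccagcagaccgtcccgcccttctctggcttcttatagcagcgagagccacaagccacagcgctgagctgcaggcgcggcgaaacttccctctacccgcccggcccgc

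The first FKBP5 promoter held 1 AGAACA and 1 TGTTTGC, and the other 3 printed promoters held none of these letters. Its G+C content was 55.7%, against 76% at the second FKBP5 start, 69% for SLC45A3 and 58.7% for STEAP4. Of the 9 promoters, 3 held AGAACA, 2 of them PMEPA1 promoters that are not printed, and 1 held a forkhead match. Over all 35116 RefSeq promoters, 14.8% held AGAACA, 3.42% TGTTTAC and 3.89% TGTTTGC. A match is a description of letters and not a bound site. These coordinates are in another build than the peaks, so the promoters could not be placed against the regions below.

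Each library gave a peak list of its own, of 81962 to 105132 peaks, and the median peak summit carried 21 to 24 stacked fragments. Of these lists' merged regions, 0.1164% to 0.1405% lay in the 8 windows. A library is said to hold a region when at least 1 of its peaks overlaps it. Fold enrichment below is the authors' per-peak value, the signal at a peak's summit over its local background.

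The 8 loci were open in every group, and close to 1 in 2 of their regions was present in every library. All 9 libraries held 79 of the 163 regions (48.47%, against 46.23% of all merged regions), 58 were held by 2 to 8 libraries and 26 by a single one. The regions held by all 9 had a median width of 670 bp and a median fold of 7.97, with 34 fragments at the summit. The 58 intermediate regions had medians of 288 bp, 4.94-fold and 15 fragments, and the 26 single-library regions had medians of 180 bp, 4.51-fold and 12.5 fragments. Regions that came and went between libraries were thus mostly narrow and weak. Among the 59637 regions held by all 9 libraries genome-wide, the 79 lay below the middle in strength, with a median percentile of 38.8, 34 above the genome-wide median and 5 in the top 10%.

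The loci differed in how constant their regions were. STEAP4 (chr7:87850000-88000000) had 10 of 13 regions in every library (76.92%), 1 of the 13 crossing the window's edge. FKBP5 (chr6:35480000-35760000) had 14 of 22 (63.64%), PMEPA1 (chr20:56160000-56350000) 11 of 19 and TMPRSS2 (chr21:42780000-42960000) 9 of 16. ZBTB16 (chr11:113870000-114180000), the widest window, had 16 of 37, and NDRG1 (chr8:134190000-134370000) had 9 of 21. At the other end, ACPP (chr3:131980000-132140000) had 5 of 14 (35.71%) and SLC45A3 (chr1:205570000-205710000) 5 of 21 (23.81%), with 8 SLC45A3 regions seen in 1 library alone.

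**Figure D1:**
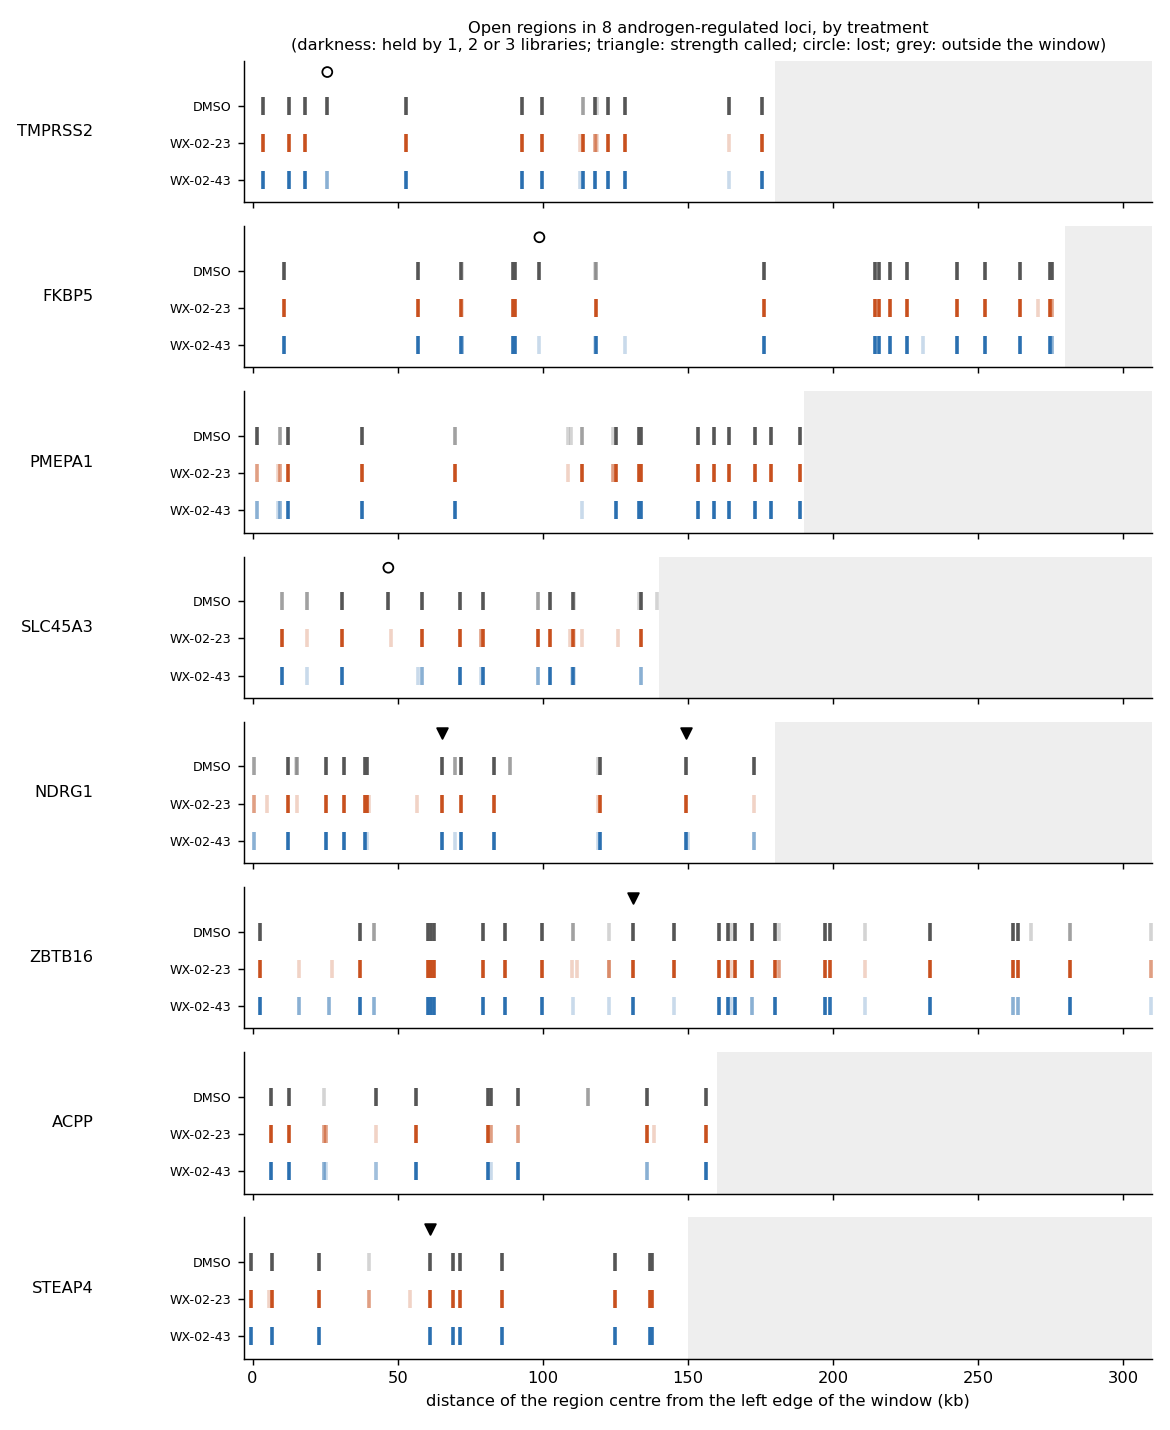
Position of the 163 regions in the 8 windows, as the distance in kb of each region's centre from the window's left edge, with 1 row of ticks per treatment. Darker ticks were held by more of the 3 libraries, triangles mark the 4 regions whose strength differed between treatments (adjusted p below 0.05) and open circles the 3 regions held by all DMSO and no WX-02-23 library. Most ticks are dark in all 3 rows.

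The strongest region of each locus was not called different between treatments. The highest was in the FKBP5 window, chr6:35731973-35732896, with a mean fold of 16.1 over 9 libraries, higher than 98.2% of the regions held by all. Its mean fold was 16.8 ± 0.928 in DMSO, 16.4 ± 1.22 with WX-02-23 and 15.2 ± 1.04 with WX-02-43 (SD, n = 3 each), and the groups overlapped. The strongest PMEPA1 region, chr20:56293457-56294135, averaged 14.1 (percentile 93.4), and that of STEAP4, chr7:87856098-87856979, 14 (92.9). For ACPP the strongest was chr3:132035804-132036826 at 12.4 (84.5), and for NDRG1 chr8:134309238-134310349 at 11.3 (76). TMPRSS2 had its strongest at chr21:42872417-42873514 with 10.9, SLC45A3 at chr1:205600151-205601728 with 10.8 and ZBTB16 at chr11:114049523-114050665 with 10.8. Between WX-02-23 and DMSO their log2 differences in strength ran from -0.20 for ACPP (95% interval -0.45 to 0.05) to 0.15 for PMEPA1 (-0.05 to 0.34).

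The number of regions held did not separate the treatments. DMSO libraries held 107, 113 and 126 of the 163 regions, WX-02-23 libraries 123, 113 and 112, and WX-02-43 libraries 98, 118 and 107. The ranges overlapped for every pair of groups, with means of 115.3 ± 9.71, 116 ± 6.08 and 107.7 ± 10 (SD, n = 3 each). WX-02-23 exceeded DMSO by 0.667 regions (90% interval -14 to 16, exact permutation p = 1). WX-02-43 differed from DMSO by -7.67 regions (-28 to 11, exact permutation p = 0.5). WX-02-23 exceeded WX-02-43 by 8.33 regions (-6 to 25, exact permutation p = 0.4). Over the 3 pairs the two-sided p-values adjusted to 1, 0.75 and 0.75, and 3 libraries against 3 cannot give an exact permutation p below 0.1. The sign of the WX-02-23 difference from DMSO turned under several other settings, for example to -5 with lists cut to equal length and to -3.5 without DMSO replicate 1.

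Within single loci the counts per library overlapped between DMSO and both compounds in all 8. ZBTB16 had 23, 23 and 27 regions in DMSO, 29, 25 and 27 with WX-02-23 and 21, 29 and 21 with WX-02-43. NDRG1 had 14, 13 and 16 in DMSO, 14, 12 and 12 with WX-02-23 and 11, 11 and 13 with WX-02-43. SLC45A3 had 8, 12 and 13 in DMSO, 14, 11 and 10 with WX-02-23 and 9, 11 and 9 with WX-02-43. In each of these 3 loci the widest range inside a group exceeded the largest distance between group means. STEAP4 was the steadiest, with 11, 10 and 10 regions in DMSO, 11, 12 and 11 with WX-02-23 and 10 in every WX-02-43 library. It was the only locus where the counts of the 2 compounds did not overlap. No test was made on single loci.

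**Figure D2:**
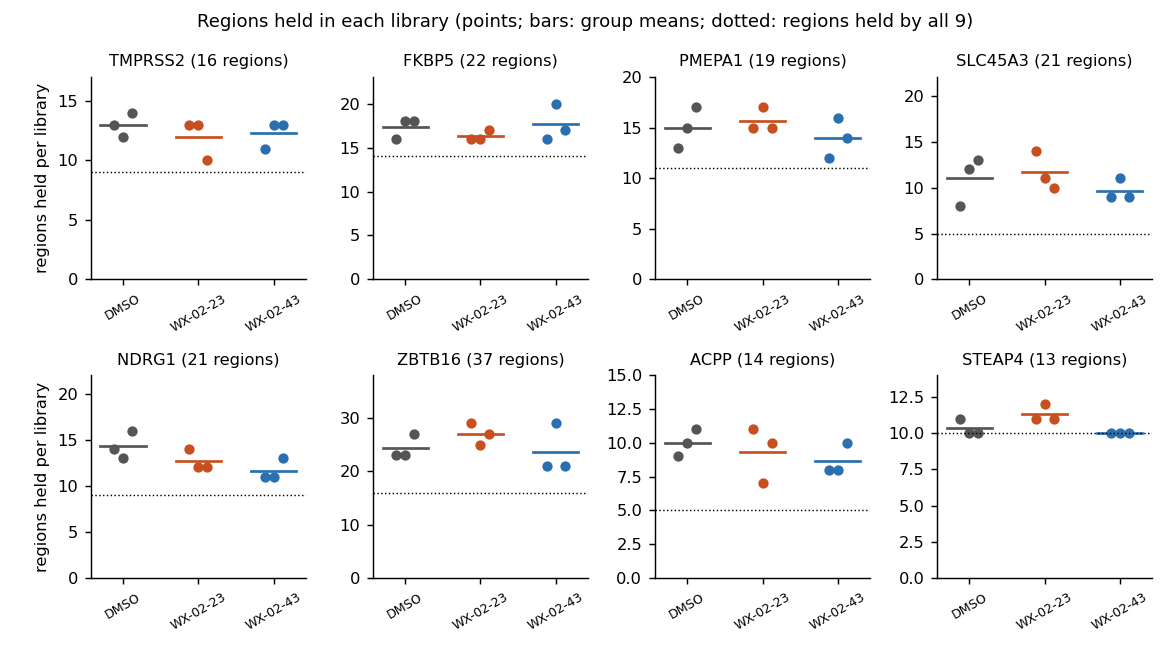
Number of regions held per library (vertical axis) in each of the 8 loci, 1 point per library and a bar at each group's mean of 3 libraries, with a dotted line at the number held by all 9. ZBTB16 libraries span 21 to 29 regions, and DMSO points overlap those of both compounds in all 8 loci.

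No region of the 8 loci was gained with either compound, and 3 were lost with WX-02-23. A region is gained when all 3 libraries of the first group hold it and none of the second, and lost in the opposite case. Against DMSO, WX-02-23 gained 0 of the 163 regions, against 1.77% of all merged regions, and lost 3 (1.84%), against 0.739% of all. WX-02-43 gained 0 and lost 1 (0.613%), against 0.331% and 0.366% of all regions. Between WX-02-23 and WX-02-43, 0 were gained and 0 lost, against 1.43% and 0.806% of all. Both comparisons with DMSO use the same 3 DMSO libraries. With counts this small the shares in the loci are set beside those of all regions as a description. A region without a peak may still carry signal below the calling threshold.

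The SLC45A3 region at chr1:205616643-205616936, 294 bp wide, had folds of 4.8, 4.51 and 5.46 in the DMSO libraries and no peak in any library of WX-02-23 or WX-02-43. It was the one region lost with both compounds. Its summits in DMSO stood on 12, 10 and 12 fragments, so it was weak where it was present.

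The FKBP5 region at chr6:35578697-35578952, 256 bp wide, had folds of 5.6, 5.76 and 5.82 in DMSO, on 11 to 12 fragments. It had no peak with WX-02-23 and 1 peak of fold 5.03 in WX-02-43 replicate 2. The TMPRSS2 region at chr21:42805582-42805926, 345 bp wide, had folds of 4.31, 6.71 and 5.38 in DMSO, on 9 to 13 fragments. It had no peak with WX-02-23, while WX-02-43 replicates 2 and 3 had folds of 5.45 and 5.81. The WX-02-43 peaks lay inside the DMSO range at TMPRSS2 and below it at FKBP5. The nearest regions held by all libraries, 7.9 kb away at FKBP5 and 7.1 kb at TMPRSS2, differed by -0.13 and 0.04 (log2) between WX-02-23 and DMSO. The count of losses against DMSO was 1 with peaks of a -log10 q of at least 5 and 1 with lists of equal length, against 0.843% and 1.12% of all regions. It was 5 without DMSO replicate 1, 6 without DMSO replicate 2 and 5 without WX-02-23 replicate 3, where the share of all regions lost was also higher, at 1.82%, 1.25% and 0.951%.

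Short of complete gain or loss, the 84 regions not held by all 9 libraries moved both ways. With WX-02-23, 35 of them (41.7%) were held by more libraries than in DMSO and 24 (28.6%) by fewer, close to the 42.6% and 29.9% of all 69357 such regions. Counting differences of 2 or more libraries, 5 (5.95%) were held more with WX-02-23 and 11 (13.1%) more in DMSO, against 12.4% and 7.21% of all. With WX-02-43, 21 (25%) were held by more libraries than in DMSO and 35 (41.7%) by fewer, against 30.9% and 31.1% of all, and by 2 or more libraries 2 and 10 (2.38% and 11.9%, against 5.73% and 5.88%). Between the compounds, 39 (46.4%) were held by more WX-02-23 than WX-02-43 libraries and 18 (21.4%) by fewer, against 43.2% and 28.8% of all, and by 2 or more libraries 7 and 3 (8.33% and 3.57%, against 11.8% and 7.11%). These tallies also follow the length of each peak list and were not tested.

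Strength was compared over the regions that every library held. For these, the log2 fold of the strongest peak was put on a common scale by quantile normalisation, which keeps each region's rank within its library, and the 3 groups were compared with limma over all 59637 regions. A region is called at a Benjamini-Hochberg adjusted p below 0.05. Of the 79 regions in the 8 loci, 1 rose (1.27%) and 2 fell (2.53%) with WX-02-23 against DMSO, against 0.699% higher and 0.795% lower genome-wide. None was called with WX-02-43 against DMSO, where 0% of all regions were called higher and 0% lower. Between WX-02-23 and WX-02-43, 1 was higher and 1 lower (1.27% each), against 0.518% and 0.921% of all regions. That genome-wide division depended on scaling, with 309 regions higher and 549 lower as fitted and 293 higher and 193 lower without any scaling.

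Most of the 79 differed little in any comparison. WX-02-23 was above DMSO in 37 and below in 42, with a median log2 difference of -0.0016, against 0.0031 over all regions. The WX-02-43 difference from DMSO was positive in 39 and negative in 40, and so was that of WX-02-23 from WX-02-43. Unadjusted p was below 0.05 in 11 of the 79 (13.92%) for WX-02-23 against DMSO, a share near the 12.29% of all regions. Between WX-02-23 and WX-02-43 the count was 8 (10.13%), against 12.95% of all regions. For WX-02-43 against DMSO it was 8 (10.13%), against 7.613% of all regions (4540), and the smallest adjusted p in the loci was 0.46 with limma. When p-values were adjusted over the 3 comparisons together, a setting chosen after seeing the data, limma called 66 regions genome-wide for WX-02-43 against DMSO, and still none of the 79.

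**Figure D3:**
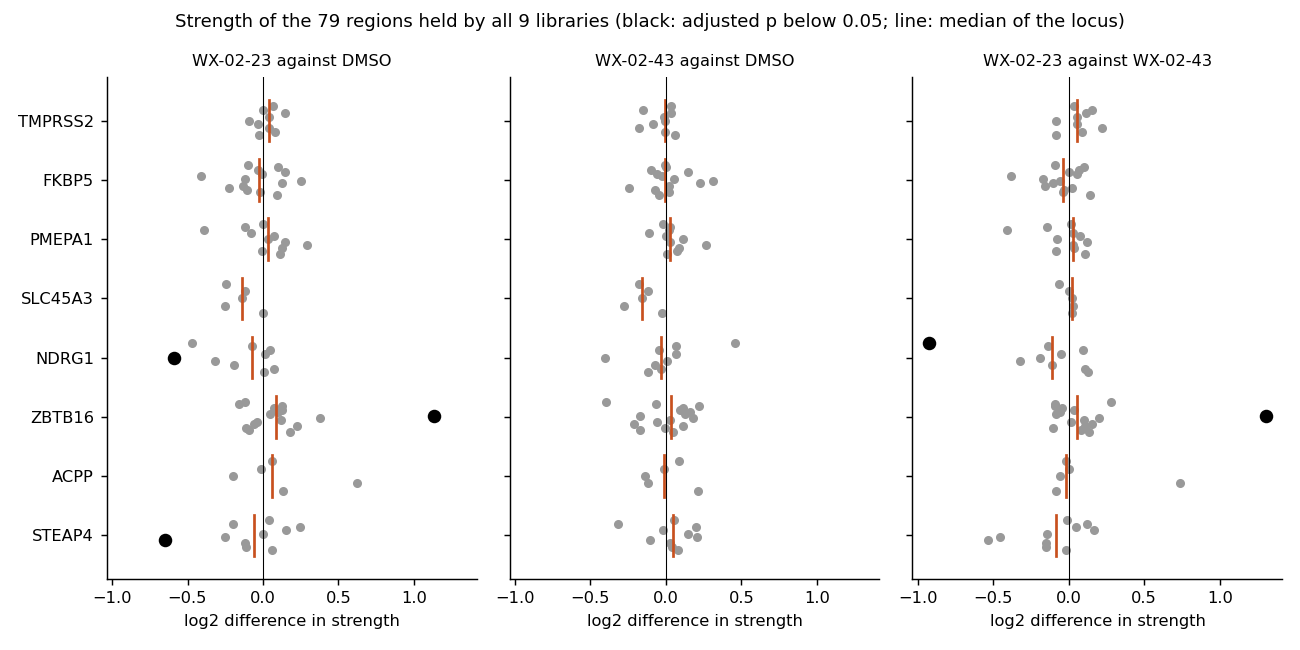
Log2 difference in strength of each of the 79 regions held by all 9 libraries (horizontal axis), by locus, for the 3 comparisons, with a vertical mark at the median of each locus. Black points have an adjusted p below 0.05: the ZBTB16 region at 1.14 and 1.30, the STEAP4 region at -0.65 and the NDRG1 regions at -0.59 and -0.93.

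The clearest difference in the 8 loci was a ZBTB16 region that rose with WX-02-23 against both other groups. It lies at chr11:114000674-114001345 and is 672 bp wide. Its fold was 4.38, 4.75 and 6.05 in the DMSO libraries, 10.7, 10.6 and 11.6 with WX-02-23 and 3.77, 4.2 and 4.85 with WX-02-43. Every WX-02-23 library stood above every other library, and the DMSO and WX-02-43 libraries overlapped. The summit stood on 15, 17 and 26 fragments in DMSO, 66, 52 and 62 with WX-02-23 and 13, 18 and 20 with WX-02-43. The authors' -log10 q was 36.3 to 45.3 with WX-02-23 and 3.89 to 12.6 in the other 6 libraries. WX-02-23 exceeded DMSO by 1.14 on the log2 scale of strength (95% interval 0.87 to 1.40, 2.2-fold, limma adjusted p = 0.00363). It exceeded WX-02-43 by 1.30 (1.04 to 1.57, 2.47-fold, limma adjusted p = 0.00218). The WX-02-43 difference from DMSO was -0.17 (-0.43 to 0.09, limma adjusted p = 0.82). Of all 59637 regions it ranked 14 by the size of its rise over DMSO and 1 by its excess over WX-02-43. It was called in both comparisons in all 19 settings run.

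No other ZBTB16 region was called. The nearest region held by all libraries, chr11:114030552-114031150, lies 29.2 kb away and differed by 0.04 between WX-02-23 and DMSO. The other 15 ZBTB16 regions held by all 9 ran from -0.16 to 0.38, with a median of 0.07 and a smallest limma adjusted p of 0.22. Of these, 9 were above and 6 below DMSO. The largest of them, chr11:113969639-113970022 and 30.7 kb away, had folds of 8.48, 9.29 and 7.8 in DMSO and 9.54, 11.3 and 12.7 with WX-02-23, so these groups did not overlap (95% interval of the difference 0.09 to 0.67). Regions nearer than 29.2 kb were weak, and most were held by few libraries. The exception, chr11:114014864-114015269 at 13.5 kb, had a peak in 3 DMSO, 3 WX-02-23 and 1 WX-02-43 libraries. The closest, chr11:113992827-113993031 at 7.6 kb, had a peak in 0 DMSO, 2 WX-02-23 and 1 WX-02-43 libraries, while chr11:113980232-113980599 at 20.1 kb had one in 2 DMSO, 0 WX-02-23 and 1 WX-02-43 libraries.

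A STEAP4 region fell with WX-02-23. It lies at chr7:87911000-87911526, is 527 bp wide, and had folds of 7.81, 7.24 and 7.88 in DMSO, 4.26, 5.49 and 4.76 with WX-02-23 and 7.19, 6.2 and 6.64 with WX-02-43. The WX-02-23 libraries were below all the others, and all WX-02-43 libraries were below all DMSO libraries by a smaller margin. These folds are unscaled, and without scaling WX-02-43 was lower than DMSO over all 59637 regions too, with a median log2 difference of -0.066. At this region the unscaled difference was -0.197. Its summit carried 17 to 20 fragments in DMSO, 9 to 10 with WX-02-23 and 15 to 16 with WX-02-43. WX-02-23 differed from DMSO by -0.65 (95% interval -0.92 to -0.38, 0.639-fold, limma adjusted p = 0.0267). WX-02-43 differed from DMSO by -0.11 (-0.38 to 0.16, limma adjusted p = 0.89). WX-02-23 differed from WX-02-43 by -0.54 (-0.81 to -0.27), which missed the threshold (limma adjusted p = 0.06) but passed it with median centring (0.0443) and with summit fragments as the measure (0.0268). The call against DMSO held in 13 of 19 settings, which count the fit itself and the fits that left out a WX-02-43 library. It was lost without any one DMSO library (limma adjusted p 0.0944, 0.0554 and 0.0669 without replicates 1, 2 and 3) and without WX-02-23 replicate 1 (0.0911) or 3 (0.0837).

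In the NDRG1 window 2 regions were called, each in another comparison. The first lies at chr8:134255083-134255536 and is 454 bp wide. Its folds were 7.1, 6.81 and 9.5 in DMSO, 5.36, 5.19 and 4.82 with WX-02-23 and 5.43, 5.27 and 5.84 with WX-02-43. Both compounds' libraries lay below all DMSO libraries and overlapped each other. It fell with WX-02-23 against DMSO by 0.59 on the log2 scale (95% interval -0.84 to -0.34, 0.665-fold, limma adjusted p = 0.0291). WX-02-43 differed from DMSO by -0.40 (-0.65 to -0.15, limma adjusted p = 0.46). The compounds differed from each other by -0.19 (-0.44 to 0.06, limma adjusted p = 0.56), an interval that allows a lower strength with WX-02-23 as well as none. The call held in 12 of 19 settings, which again count the fit itself and the fits that left out a WX-02-43 library. It was lost without DMSO replicate 1 (limma adjusted p = 0.0798) or 3 (0.0848) and without WX-02-23 replicate 1 (0.0742), 2 (0.0698) or 3 (0.102).

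The second NDRG1 region lies at chr8:134339050-134339717 and is 668 bp wide. Its folds were 6.38, 6.75 and 9.34 in DMSO, 4.52, 6.36 and 5.14 with WX-02-23 and 9.85, 8.67 and 10.3 with WX-02-43. Every WX-02-43 library stood above every WX-02-23 library, while DMSO overlapped WX-02-43 and its lowest library lay just above the highest of WX-02-23. The WX-02-23 libraries had 12 to 13 fragments at the summit and the WX-02-43 libraries 29 to 36. WX-02-23 was lower than WX-02-43 by a log2 difference of -0.93 (95% interval -1.25 to -0.60, 0.527-fold, limma adjusted p = 0.0141). The differences from DMSO were -0.47 with WX-02-23 (-0.80 to -0.14, limma adjusted p = 0.18) and 0.46 with WX-02-43 (0.13 to 0.78, limma adjusted p = 0.52), neither past the threshold, though that of WX-02-23 passed it with summit fragments as the measure (0.0222). The call between the compounds held in 16 of 19 settings, which count the fit itself and the fits that left out a DMSO library. It was lost without WX-02-23 replicate 3 (limma adjusted p = 0.0524) or WX-02-43 replicate 1 (0.0549) or 3 (0.0542). DMSO replicate 3 had the highest fold of its group in both NDRG1 regions.

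**Figure D4:**
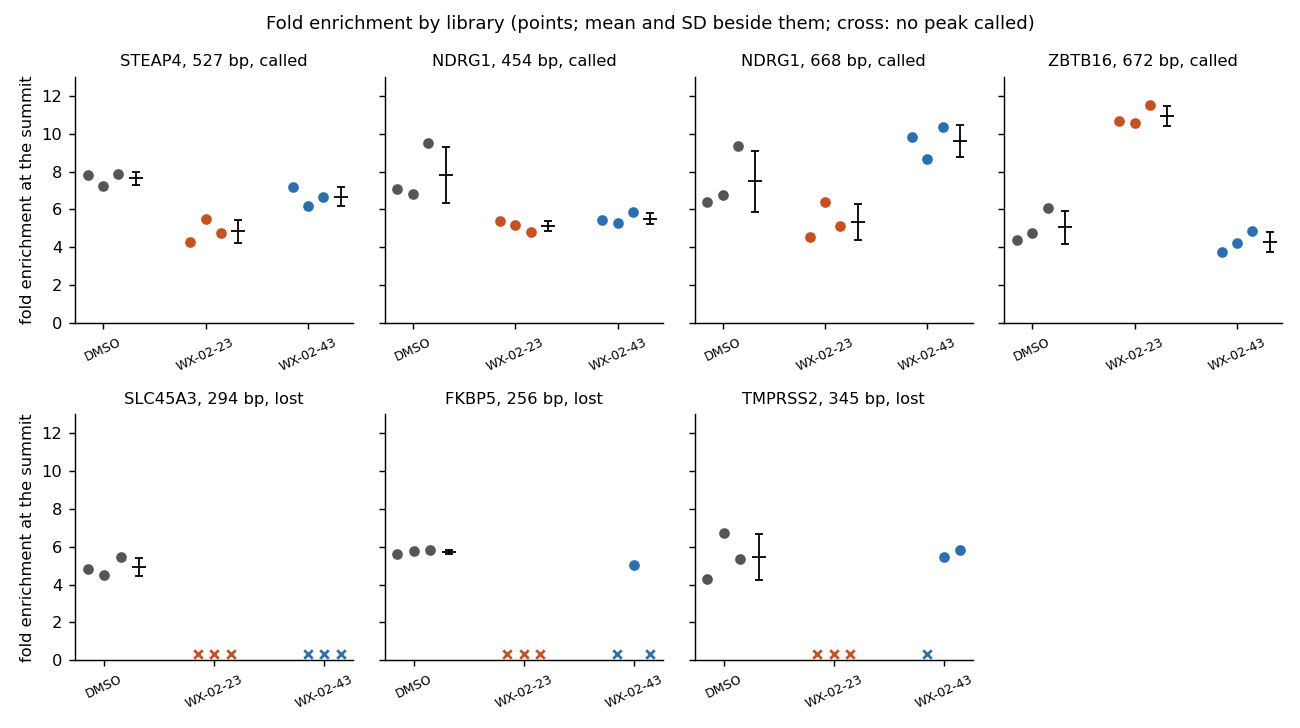
Fold enrichment at the summit (vertical axis, the authors' per-peak value) by library for the 4 regions called in strength and the 3 lost regions. Points are single libraries, bars the mean and SD of a group, and crosses libraries with no peak. At the ZBTB16 region the WX-02-23 libraries lie between 10.6 and 11.6 and all others at or below 6.05.

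In the remaining 5 loci no region held by all 9 was called with this measure and scaling, and the one that differed most between WX-02-23 and DMSO in each is given here. The ACPP region at chr3:131992292-131992989 had folds of 6.07, 5.28 and 8.06 in DMSO, 11.1, 10.6 and 7.98 with WX-02-23 and 5.85, 4.62 and 6.23 with WX-02-43. WX-02-23 replicate 3 lay inside the DMSO range, and all WX-02-23 libraries lay above all WX-02-43 libraries. The difference from DMSO was 0.62 (95% interval 0.25 to 0.996, limma adjusted p = 0.11) and that from WX-02-43 0.74 (0.36 to 1.11, limma adjusted p = 0.064). With summit fragments as the measure it passed the threshold against DMSO (limma adjusted p = 0.0234) and WX-02-43 (0.0145). Against WX-02-43 it also passed with median centring (0.0483) and without DMSO replicate 2 (0.0478).

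The FKBP5 region at chr6:35699193-35700246 had folds of 5.08, 4.84 and 4.81 in DMSO, 3.26, 4.03 and 3.71 with WX-02-23 and 4.55, 4.81 and 4.42 with WX-02-43. Here the WX-02-23 libraries lay below all the others, by a log2 difference from DMSO of -0.41 (95% interval -0.64 to -0.19, limma adjusted p = 0.079). It passed the threshold with −log10 q (limma adjusted p = 0.0204), summit fragments (0.0278) and the mean fold of all peaks (0.0378) as the measure. This region was weak, at percentile 2.99 of mean fold. A library had up to 2 peaks in it, and the strongest peak's summit lay up to 527 bp apart between libraries. The PMEPA1 region at chr20:56332427-56333411 had folds of 8.54, 9.72 and 7.87 in DMSO, 7.42, 5.57 and 6.9 with WX-02-23 and 8.03, 8.28 and 8.55 with WX-02-43. It too was lower in each WX-02-23 library than in all others, with a difference from DMSO of -0.39 (-0.66 to -0.13, limma adjusted p = 0.15). It passed the threshold with −log10 q (limma adjusted p = 0.0223 against DMSO and 0.0257 against WX-02-43) and with summit fragments (0.00449 and 0.00536).

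In SLC45A3 the corresponding region, chr1:205641268-205641901, differed by -0.25 (95% interval -0.55 to 0.05), and in TMPRSS2, chr21:42902250-42902850, by 0.15 (-0.29 to 0.58), with overlapping WX-02-23 and DMSO libraries in both. All 5 SLC45A3 regions held by every library had lower mean strength with each compound than in DMSO on this scale, with medians of -0.14 for WX-02-23 and -0.16 for WX-02-43. The strongest of the 5 differed by only -0.003 with WX-02-23, and its deposited fold averaged 11 in both groups. None of the 5 was called (smallest limma adjusted p 0.42 and 0.69). In the 9 TMPRSS2 regions the differences from DMSO stayed between -0.09 and 0.15 with WX-02-23 and between -0.18 and 0.06 with WX-02-43.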

How the data were processed

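The 9 ATAC-seq libraries of edited 22Rv1 cells came from a commercial kit, per the labels' protocols. The submitters' processing notes name Bowtie2, MACS2 and the build hg19. Their settings, any shift of read ends and duplicate removal were not given in the sources used here. The authors' deposited lists, 1 per library and not pooled, give each peak a score, a fold enrichment (a ratio), and a −log10 p and −log10 q. The authors' deposited score was not used. Read totals were not analysed here. Summit fragments were solved from the deposited fold and −log10 p under the Poisson formula of MACS2 (scipy 1.17.1), matched within 0.002.

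Peaks on chromosomes 1 to 22 and X were merged (1 bp). Strength was the log2 of the deposited fold of a region's strongest peak, quantile-normalised over the 59637 regions held by all 9 libraries and fitted with limma 3.58.1 in R 4.3.3 on all 9 libraries, with Benjamini-Hochberg adjustment over those regions. The fit was also run on simulated data with independent noise in each region, which checks the code and not the calls made here. Regions held were compared by two-sided exact permutation, with 90% intervals by test inversion. Named regions are the strongest per locus, those gained, lost or called in any pair, and the one with the largest WX-02-23 difference from DMSO per locus. The loci and this rule were chosen with earlier results of these data known. Alternatives changed the scaling, the peak measure, the q threshold, the overlap, the list length, the replicate block and the libraries kept. An hg19 genome and annotation were not used here, so gene placement, motif counts in regions and a further list of androgen-response loci were left out.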

Additional observations from a re-analysis of the deposited data

How the results depend on the processing

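The ZBTB16 region was called in both WX-02-23 comparisons under every setting run. The number of called regions in the loci was 3 for WX-02-23 against DMSO. It became 6 with −log10 q, 8 with summit fragments and 5 with the mean fold of all peaks as the measure. The share of all regions called went from 1.49% to 3.05%, 5.69% and 1.09%. With 1 library of the pair left out the number was 1 to 2, against 0.703% to 0.817% of all regions. It was 1 without DMSO replicate 1 or 3 or WX-02-23 replicate 1 or 3. It stayed 3 only without a WX-02-43 library, a group outside this comparison, against 1.28% to 1.37% of all regions. For WX-02-23 against WX-02-43 the number was 2, and became 4 with median centring, 4 with −log10 q and 6 with summit fragments. The share of all regions called was 1.44%, then 1.64%, 2.63% and 4.72%. With 1 library of the pair left out the number was 1 to 2, against 0.565% to 0.714% of all regions. It was 1 without the third WX-02-23 library, or without WX-02-43 replicate 1 or 3. Without 1 DMSO library, a group outside this comparison, it was 2 to 3, against 1.25% to 1.34% of all regions. For WX-02-43 against DMSO the number was 0 throughout. Of 3 regions lost with WX-02-23 against DMSO, 1 was counted at a −log10 q of at least 5 and 1 with equal-length lists. When 1 library was left out, 3 to 6 were lost, against 0.913% to 1.82% of all regions. Gains were then 0 to 3, against 1.96% to 3.21% of all regions. The 3 gains came without WX-02-23 replicate 3, where 3.08% of all regions were gained. WX-02-43 against DMSO had 1 loss, 3 with equal-length lists, 2 with 50% of the region covered (all regions 0.366%, then 0.411% and 0.502%), and 1 to 3 losses and 0 to 1 gains with 1 library left out (3 losses without DMSO replicate 1 or any 1 WX-02-43 library, 2 without DMSO replicate 2, where 0.504% to 1.42% of all regions were lost). In that comparison, 0.426% to 1.4% of all regions were gained with 1 library left out. WX-02-23 against WX-02-43 had 0 losses, 1 with 50% covered, against 0.806% and 0.958% of all regions. With 1 library left out it had 0 to 2 losses and 0 to 2 gains. The 2 losses came without WX-02-43 replicate 1, against 1.92% of all regions. There were 2 gains without the third WX-02-23 library and 2 without WX-02-43 replicate 2, against 2.77% and 2.19% of all regions. The difference in regions held between WX-02-23 and DMSO was 0.667, and became -2 at a −log10 q of at least 5, -5 with equal-length lists, -1 with 50% covered, -0.00608 percentage points as a share of all regions held (an alternative chosen after seeing the data), and -3.5 to 6 with 1 library left out. That of WX-02-23 from WX-02-43 became 0 with equal-length lists and 3.5 to 13.5 with 1 library left out, and that of WX-02-43 from DMSO -12.8 to -2.33. The cause of these changes was not tested. Replicate numbers did not pair the libraries (correlations of deviations of -0.109 to 0.12 for equal numbers, -0.099 to 0.099 for others). With a replicate block the called regions were 2, 0 and 2 for the 3 comparisons, against 1.17%, 0% and 1.21% of all regions. The STEAP4 adjusted p was then 0.056 (limma). With the same block, regions held differed by 0.667, -7.67 and 8.33, where the smallest exact sign-flip p is 0.25. The NDRG1 region of 454 bp was not called without scaling (limma adjusted p = 0.0685) or with the 6 libraries of the pair alone (0.0584). The lost regions had 9 to 13 summit fragments where present, close to the median of 12.5 of regions held by a single library, so their absence is not firm at this depth.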

Other observations

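Another NDRG1 region, chr8:134228496-134229286 (791 bp), was chosen after its values were seen because it passed the threshold only with other peak measures. Its fold was 10.4, 10.8 and 12 in DMSO, 9.03, 9.09 and 8.58 with WX-02-23 and 10.4, 10.5 and 10.8 with WX-02-43, so each WX-02-23 library lay below all the others. The log2 difference of strength was -0.32 from DMSO and -0.33 from WX-02-43, with limma adjusted p of 0.0977 and 0.0921. With summit fragments as the measure the limma adjusted p was 0.0202 and 0.00517.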
